A study of Mus musculus with 10 samples.

Results

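The genes described here are 36 genes of meningeal fibroblasts and their extracellular matrix, taken by symbol from a table of 24421 genes measured in the ventral hippocampus (vHpc). All 36 were in the table and all 36 averaged 0.5 CPM or more, the level from which a gene was tested (15081 genes). CPM scale the reads of a gene to a library total of 1000000. Among them, 4 genes (Myoc, Prelp, Bmp6 and Igf2) are set against the other 32. The 4 were singled out with results of these data already known, and Myoc was also a gene that the study followed up, so their place in the list is not a finding. For the same reason, the share of the 36 genes called, set beside that of all genes, does not measure enrichment.

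The meninges are the membranes around the brain, and their inner layers, pia and arachnoid, follow the folds of the hippocampus and its vessels. Fibroblasts of these layers deposit collagens and small leucine-rich proteoglycans, which bind collagen fibrils, carry transporters that clear solutes from cerebrospinal fluid, make retinoic acid, and secrete growth factors of the BMP and insulin-like families. BMPs signal through serine/threonine kinase receptors to SMAD proteins. Igf2 acts on the IGF1 receptor and is made in adult brain by the meninges and the choroid plexus. Some of the other genes are also made outside the meninges, among them Ptgds in oligodendrocytes and choroid plexus, Thbd in endothelium and Spp1 in activated microglia.

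All mice were ovariectomized (OVX) C57BL/6 females that drank water with 0.1% ethanol for 6 weeks after 2 weeks of recovery. WT mice carried the wild-type Bdnf gene and Het-Met mice (BDNF Met/+) a single knock-in copy of the Met allele of this neurotrophin gene. E2-treated mice of either genotype received 17β-estradiol at 300 nM in that water, about 0.7 µg per day, and vehicle-treated mice the ethanol alone. WT mice gave 2 vehicle libraries (numbered 1 and 3) and 2 E2 libraries (1 and 2), Het-Met mice 3 of either kind, and every library pooled RNA from 2 animals, so that differences between single animals were not measured. The paper describes 3 replicates per group, so the WT groups here hold fewer libraries than it describes.

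The libraries held 19820184 to 23267410 reads counted on genes, and replicates differed by more than sampling noise (chi-square over its degrees of freedom 3.29 to 13.5). Of 24 further meningeal markers, 20 reached that mean, and the list summed to between 320 and 368 CPM in the 10 libraries. Neuronal markers (6 genes) summed to between 6845 and 7429 CPM, and which cells supplied the reads of a gene was not measured. Choroid plexus markers (16 genes, Ttr among them) set libraries apart. Their sum was 201 and 1156 CPM in vehicle-treated WT mice, 2629 and 1995 CPM in E2-treated WT mice, 3360.2, 1541 and 2037 CPM in vehicle-treated Het-Met mice, and 1638, 500.5 and 318 CPM in E2-treated Het-Met mice. Much of this was Ttr. Without Ttr the other 15 summed to 92.5 and 196 CPM in WT mice with vehicle and 424 and 308 CPM with E2. In Het-Met mice these 15 summed to 305, 225 and 302 CPM with vehicle and 268, 139 and 115 CPM with E2.

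The RefSeq promoter windows of the 4 genes, 250 bases before to 50 bases after a start site on GRCm38.p6, are printed because the treatment was an estrogen, whose receptors bind DNA. They are Myoc at chr1:162638900-162639199 (plus strand), Prelp at chr1:133921352-133921651 (minus strand), Bmp6 at chr13:38345466-38345765 (plus strand), and the most upstream of 4 start sites of Igf2 at chr7:142666767-142667066 (minus strand). Capitals mark a single arm of the estrogen response element (GGTCA, or TGACC on the printed strand) or a TATA box (TATAAA).
Myoc: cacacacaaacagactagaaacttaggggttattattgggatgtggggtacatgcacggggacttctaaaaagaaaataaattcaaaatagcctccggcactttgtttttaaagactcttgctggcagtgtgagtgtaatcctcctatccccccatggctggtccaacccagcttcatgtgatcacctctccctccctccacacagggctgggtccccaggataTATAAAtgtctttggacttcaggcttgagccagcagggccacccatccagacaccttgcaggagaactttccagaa
Prelp: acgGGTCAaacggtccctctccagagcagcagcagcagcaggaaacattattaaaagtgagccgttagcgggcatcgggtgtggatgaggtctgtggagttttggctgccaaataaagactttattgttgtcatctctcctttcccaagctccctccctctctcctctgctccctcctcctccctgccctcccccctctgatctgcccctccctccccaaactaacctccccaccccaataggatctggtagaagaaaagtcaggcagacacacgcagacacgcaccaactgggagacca
Bmp6: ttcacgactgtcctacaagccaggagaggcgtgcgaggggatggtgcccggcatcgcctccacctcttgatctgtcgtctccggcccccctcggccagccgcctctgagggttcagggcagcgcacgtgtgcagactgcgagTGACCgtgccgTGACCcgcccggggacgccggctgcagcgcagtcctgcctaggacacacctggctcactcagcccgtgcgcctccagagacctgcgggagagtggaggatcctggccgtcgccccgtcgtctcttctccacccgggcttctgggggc
Igf2: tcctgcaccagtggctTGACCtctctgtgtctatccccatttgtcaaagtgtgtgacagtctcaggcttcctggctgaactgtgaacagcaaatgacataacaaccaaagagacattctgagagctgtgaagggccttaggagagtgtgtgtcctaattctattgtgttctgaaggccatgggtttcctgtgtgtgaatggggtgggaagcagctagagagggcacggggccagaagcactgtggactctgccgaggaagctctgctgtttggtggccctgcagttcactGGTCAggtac
The Myoc window held the TATA box and 0 arms, Prelp 1 arm, Bmp6 2 arms in the same direction, and this Igf2 window 2 arms far apart. The full palindromic element (GGTCANNNTGACC) was in 0 of 33 windows of the 25 genes with a RefSeq entry, and in 0.0700% of all 32851 windows. The arm was in 39.4% of the 33 windows and in 40.5% of all, and the TATA box in 15.2% and 13.6%, both strands searched. A match is a description of these letters and says nothing of receptor binding.

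Per kb of exon, Ptgds, the prostaglandin D2 synthase of cerebrospinal fluid, stood highest of the 36 genes with a mean of 423 CPM per kb. Nov, a matricellular protein also called Ccn3, followed with 80.2 CPM per kb and Igf2 with 28.8 CPM per kb. Prelp ranked 7 with 16.6 CPM per kb, Myoc 9 with 11.9 CPM per kb and Bmp6 27 with 2.11 CPM per kb. The transcription factor Foxd1 was lowest with 0.308 CPM per kb and 26 reads in its lowest library. From the lowest to the highest library, the other 32 genes varied by a factor of 1.29 (Efemp1, a fibulin) to 3.02 (Col3a1), with a median of 1.63. Myoc varied 2.61-fold, Bmp6 2.12-fold, Igf2 2.12-fold and Prelp 1.63-fold, so the span of the 4 lay within that of the others.

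Myoc (chr1:162639155-162649693, plus strand of GRCm38), which encodes the secreted glycoprotein myocilin, was lower with E2 and higher in Het-Met mice. Vehicle-treated WT libraries had 20.9 and 24.0 CPM and E2-treated ones 13.1 and 15.99 CPM. Vehicle-treated Het-Met libraries had 34.2, 33.4 and 30.9 CPM and E2-treated ones 24.6, 23.4 and 26.2 CPM. The groups did not overlap in any of the pairwise comparisons, and the E2-treated Het-Met libraries lay at the level of vehicle-treated WT mice. In bulk tissue such as this, fewer cells of a type and less RNA per cell cannot be told apart. A gene was called at an adjusted p under 0.05 with a fold change above 1.3, and p-values measure the spread between libraries, which are pools. Under E2, Myoc was called 1.68-fold higher in Het-Met mice, a log2 fold change of 0.75 (SE 0.11, adjusted p = 0.0356 over all genes, limma). Under vehicle the log2 fold change between genotypes was 0.54 (SE 0.11, adjusted p = 0.215, limma), which did not pass. Averaged over treatments it was 0.65 (SE 0.08, adjusted p = 0.0034, limma), and Myoc was the only 1 of the 36 genes called there, where 0.0265% of all genes were called. The log2 fold change with E2 was -0.61 in WT mice (SE 0.12, adjusted p = 0.1201) and -0.40 in Het-Met mice (SE 0.10, adjusted p = 0.597, limma). Averaged over genotypes it was -0.51 (SE 0.08, adjusted p = 0.0615, limma), short of the threshold, where 0 of the 36 genes and 0.00663% of all genes were called. The paper itself reported Myoc as lower with E2 in both genotypes, by RNA-seq and also by quantitative RT-PCR. The E2 effects of the genotypes differed by 0.21 (95% interval -0.11 to 0.54), and did not pass. In exact two-sided permutation tests on log2 values, with labels rearranged within the other factor, Myoc gave p = 0.0167 for E2 (120 arrangements) and p = 0.01 for genotype (100 arrangements), the smallest values these designs allow. These are unadjusted and among 8 such tests on the 4 genes, and the other 6 gave p between 0.17 and 0.81. The 4 genes were singled out with results of these same libraries known, so these p-values are not independent support. The genotype call averaged over treatments was lost without WT E2 library 1 (0.58, adjusted p = 0.0542, limma).

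Prelp (chr1:133910304-133921414, minus strand), a proline- and arginine-rich proteoglycan that anchors basement membranes to connective tissue, rose with E2 in WT mice. Its CPM were 49.9 and 48.1 in vehicle-treated and 75.9 and 78.3 in E2-treated WT libraries. Het-Met libraries had 61.5, 58.4 and 59.5 CPM with vehicle and 60.6, 50.4 and 57.5 CPM with E2. The E2-treated WT libraries were above, and the vehicle-treated ones below, all 6 libraries of Het-Met mice, whose own groups overlapped. The log2 fold change in WT mice was 0.65 (SE 0.09, adjusted p = 0.0305, limma), a 1.57-fold rise, and Prelp, singled out beforehand, was the 1 gene of the 36 called, against 0.0133% of all genes. In Het-Met mice it was -0.09 (95% interval -0.25 to 0.06, adjusted p = 0.967, limma), where 0 of the 36 genes and 0% of all genes were called. The difference between these E2 effects, the interaction, was -0.74 (SE 0.12, adjusted p = 0.0393, limma) and passed. Between genotypes the log2 fold change was 0.28 under vehicle (SE 0.08, adjusted p = 0.330) and -0.46 under E2 (SE 0.08, adjusted p = 0.0714, limma). Leaving out any 1 of the 4 WT libraries or the 3 vehicle-treated Het-Met libraries lost the call for the rise in WT mice (log2 fold change 0.62 to 0.68, adjusted p between 0.0566 and 0.463, limma). The interaction was lost without any 1 library other than WT vehicle library 3 and Het-Met E2 library 1 (adjusted p between 0.056 and 0.310).

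Bmp6 (chr13:38345107-38500302, plus strand), a secreted BMP ligand known in the periphery for inducing the iron hormone hepcidin, was the lowest of the 4. Vehicle-treated WT libraries had 6.89 and 7.63 CPM and E2-treated ones 11.89 and 12.03 CPM. Het-Met libraries had 8.06, 7.72 and 8.997 CPM with vehicle and 6.998, 5.67 and 6.54 CPM with E2. The E2-treated WT libraries stood above the other 8, and within Het-Met mice the E2-treated libraries all lay below the vehicle-treated ones. Under E2, Bmp6 was called 0.552-fold in Het-Met relative to WT mice, a log2 fold change of -0.86 (SE 0.13, adjusted p = 0.0418, limma). Together with Myoc, also singled out beforehand, it made 2 of the 36 genes called under E2, against 0.0265% of all genes. Its log2 fold change with E2 was 0.68 in WT mice (SE 0.15, adjusted p = 0.194) and -0.35 in Het-Met mice (SE 0.12, adjusted p = 0.758, limma), and neither passed. The interaction was -1.03 (SE 0.19, adjusted p = 0.0584, limma), short of the threshold, and under vehicle the genotypes differed by 0.17 (95% interval -0.11 to 0.46). Without Het-Met E2 library 1 the interaction passed (-1.09, adjusted p = 0.0201, limma), and under E2 all 4 genes were then called. Calls over all genes rose as well without that library, from 11 to 71 for the interaction and from 4 to 45 for genotype under E2. Under E2 the Bmp6 call was kept only without that library or 1 of the 2 vehicle-treated WT libraries, and the Myoc call was lost without either E2-treated WT library, Het-Met vehicle library 2, or Het-Met E2 library 2 or 3 (adjusted p between 0.0511 and 0.698 for both genes). Bmp6 shares its locus with Txndc5 on the opposite strand (mean 65.8 CPM). The library kit marked strand, but whether counting used it is not given in the sources used here, so reads of the 2 genes may not be fully separated.

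Igf2 (chr7:142650766-142666816, minus strand), a fetal growth factor, was the most abundant of the 4. Vehicle-treated WT libraries had 131 and 117 CPM and E2-treated ones 239 and 199.9 CPM. Het-Met libraries had 191, 173 and 179 CPM with vehicle and 179.6, 123 and 113 CPM with E2. Both E2-treated WT libraries were above the other 8, whereas the Het-Met groups overlapped through replicate 1 of the E2-treated mice. The E2 effects of the genotypes differed by -1.23 (SE 0.20, adjusted p = 0.0454, limma), a call. With Prelp this made 2 of the 36 genes called for the interaction, against 0.0729% of all genes, and both were singled out beforehand. The log2 fold change with E2 was 0.82 in WT mice (SE 0.16, adjusted p = 0.1201) and -0.41 in Het-Met mice (SE 0.13, adjusted p = 0.748, limma), so neither arm passed alone. Between genotypes it was 0.54 under vehicle (SE 0.14, adjusted p = 0.294), where 0 of the 36 genes and 0.00663% of all genes were called, and -0.69 under E2 (SE 0.14, adjusted p = 0.188, limma). The interaction call was lost without any 1 library but Het-Met E2 library 1 (-1.430 to -1.095 over the libraries left out, adjusted p between 0.0575 and 0.377 where lost). Without that library Igf2 also passed for E2 in WT mice (0.82, adjusted p = 0.0091) and between genotypes under E2 (-0.89, adjusted p = 0.0042, limma). Over all genes 16 and 45 were then called in these comparisons, against 2 and 4 with all libraries.

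**Figure D1:**
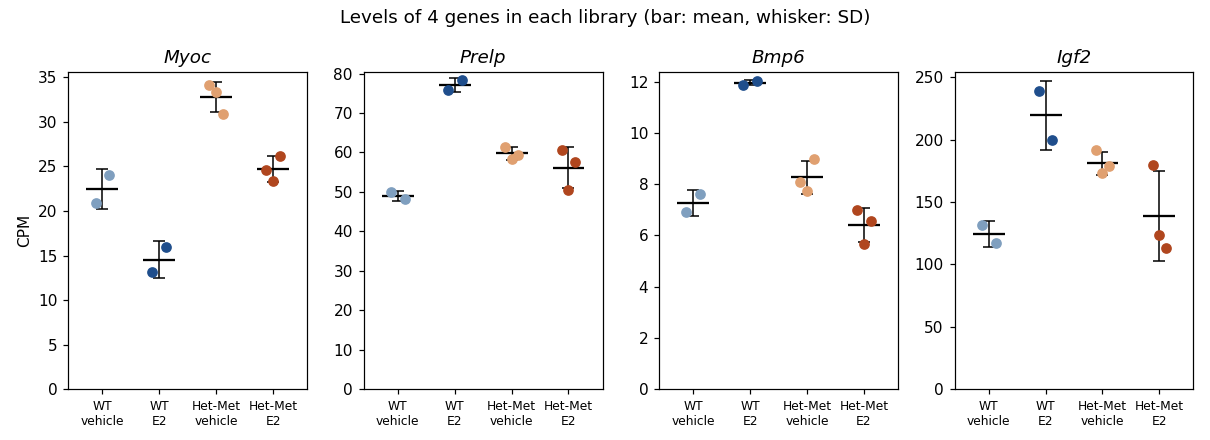
CPM of Myoc, Prelp, Bmp6 and Igf2 (vertical axes, starting at 0) in the 4 groups (horizontal axis), 1 point per library, with the mean as a bar and the SD as a whisker. The E2-treated WT libraries are the lowest for Myoc, at 13.1 and 15.99 CPM, and the highest for the other 3 genes.

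In WT mice Myoc averaged 22.5 ± 2.24 CPM with vehicle and 14.5 ± 2.04 CPM with E2 (SD, n = 2 each), and in Het-Met mice 32.8 ± 1.71 and 24.7 ± 1.43 CPM (SD, n = 3 each). Prelp averaged 49.0 ± 1.31 and 77.1 ± 1.75 CPM (SD, n = 2 each) against 59.8 ± 1.58 and 56.2 ± 5.23 CPM (SD, n = 3 each). The highest mean of Myoc was thus in Het-Met mice on vehicle and its lowest in WT mice on E2, whereas both extremes of Prelp were in WT mice. Bmp6 averaged 7.26 ± 0.522 and 11.96 ± 0.102 CPM (SD, n = 2 each) against 8.26 ± 0.661 and 6.40 ± 0.675 CPM (SD, n = 3 each). Igf2 averaged 124 ± 10.2 and 219 ± 27.6 CPM (SD, n = 2 each) against 181 ± 9.32 and 139 ± 35.97 CPM (SD, n = 3 each). The widest spread of the 4 genes was that of Igf2 in E2-treated Het-Met mice.

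The 4 genes were also set against the other 32 in each library. The measure was log2(CPM + 0.5) of the gene minus the median over the 32. For Myoc it was 0.76 ± 0.23 and 0.07 ± 0.17 (SD, n = 2 each) in vehicle-treated and E2-treated WT mice, and 1.27 ± 0.19 and 0.82 ± 0.17 (SD, n = 3 each) in Het-Met mice. For Prelp it was 1.88 ± 0.05 and 2.44 ± 0.01 (SD, n = 2 each) against 2.12 ± 0.15 and 1.99 ± 0.21 (SD, n = 3 each). With E2 the relative level of Bmp6 differed by 0.60 in WT and by -0.39 in Het-Met mice, and that of Igf2 by 0.73 and -0.46. The 32 genes themselves were not level across libraries. Replicate 3 of the E2-treated Het-Met mice was the highest library for 17 of the 32, replicate 2 of that group the lowest for 9, and WT vehicle library 3 the lowest for 7. In Het-Met E2 library 3 Igf2 was at its own lowest, 113 CPM, while the median over the 32 of each gene's log2 difference from vehicle-treated WT mice was 0.32.

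None of the other 32 genes was called in any of the 7 comparisons by limma, edgeR or DESeq2, and at an unadjusted p under 0.05 with a fold change above 1.3 none passed in a pairwise comparison. Their 95% intervals spanned 0.51 to 1.43 log2 units for E2 in WT mice and 0.42 to 1.17 in Het-Met mice. At the unadjusted threshold the 36 genes gave 3 higher and 1 lower for E2 in WT mice, all from the 4, where 1.69% and 0.889% of all genes passed. For E2 in Het-Met mice 0 were higher (1.02% of all genes) and 2 lower, Myoc and Igf2 (0.928%). Between genotypes 2 were higher under vehicle, again Myoc and Igf2 (1.59% of all genes), and 0 lower (1.70%), and under E2 1 was higher and 3 lower (1.89% and 2.73%). On average over the other factor Myoc was the single gene past it, lower with E2 (0.272% of all genes) and higher in Het-Met mice (0.670%). The median log2 fold change of the 32 was 0.09 for E2 in WT mice, with 23 higher and 9 lower. It was 0.00 for E2 in Het-Met mice, and for genotype 0.09 under vehicle and -0.03 under E2, and the median of all genes lay within 0.03 of 0 in each.

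Small leucine-rich proteoglycans and their relative Islr form the group of Prelp. All 7 had a positive log2 fold change with E2 in WT mice, from 0.10 to 0.65 with a median of 0.21, and all 7 a negative interaction, from -0.74 to -0.11 with a median of -0.43, but Prelp alone was called. Of all 15081 genes, 7388 were higher with E2 in WT mice and 7322 had a negative interaction. The 7 were read in the same libraries and include Prelp, singled out beforehand, so their signs are not independent. Decorin (Dcn) and lumican (Lum), which regulate collagen fibril width and lie 47.0 kb apart on chromosome 10, had 96.4 to 158 CPM and 5.88 to 10.9 CPM over the 10 libraries. Fibromodulin (Fmod), 116 kb from Prelp on chromosome 1, had 17.8 to 29.7 CPM, with both E2-treated above both vehicle-treated WT libraries and overlap between the Het-Met groups. Islr ran from 15.5 to 24.1 CPM, and a neighbour on its own strand, Islr2, had a mean of 103 CPM, so its reads may not be fully its own.

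Osteoglycin (Ogn) and biglycan (Bgn), both of this group, came nearest to the 4. Ogn had 20.3 and 17.3 CPM in vehicle-treated and 21.0 and 22.4 CPM in E2-treated WT libraries, and 22.8, 22.7 and 25.0 CPM against 20.01, 19.9 and 16.8 CPM in Het-Met libraries. Its groups did not overlap in either genotype, higher with E2 in WT mice and lower in Het-Met mice. The log2 fold change was 0.21 in WT mice (SE 0.12, adjusted p = 1.00) and -0.31 in Het-Met mice (SE 0.10, adjusted p = 0.748), with an interaction of -0.52 (SE 0.16, adjusted p = 0.450, limma). Bgn had 29.1 and 28.3 CPM against 36.1 and 30.0 CPM in WT libraries, and 31.9 to 36.5 CPM against 30.8, 25.3 and 25.9 CPM in Het-Met libraries. These groups did not overlap either, in the same directions as Ogn. With 2 libraries against 2, however, the smallest two-sided permutation p is 0.333, so separation in WT mice carries little weight. Dcn, Fmod, Islr, Bmp7, Efemp1, Itih2, Fbln1 and Osr1 also separated upwards there, and Col6a1, Col6a2 and Igfbp6 downwards. The share of all genes without overlap was not counted, so these separations, those of Ogn and Bgn included, are not a result about the 36 genes. The interaction of Bgn was -0.48 (SE 0.15, adjusted p = 0.547, limma). At the unadjusted threshold the interaction held 5 of the 36 genes, all negative (Prelp, Bmp6, Igf2, Ogn and Bgn), where 2.02% of all genes passed downwards and 1.94% upwards, and of these 5 Prelp and Igf2 passed after adjustment over all genes.

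Collagens, the fibril and filament proteins of the matrix, had 0 calls in the 7 comparisons. For E2 in WT mice the log2 fold changes of the 5 ran from -0.37 to 0.01 with a median of -0.15, 4 of them negative, and 0 were called. Col6a1 and Col6a2, neighbours 85.2 kb apart on chromosome 10 that encode chains of the beaded-filament collagen VI, ran from 83.6 to 169 CPM and from 23.9 to 46.7 CPM, and both were highest in Het-Met E2 library 3. Col1a1 and Col1a2, the chains of fibrillar collagen I, had 10.5 to 22.0 CPM and 13.6 to 19.01 CPM. Col3a1 was lowest, 2.54 CPM, in Het-Met E2 library 2 and highest, 7.65 CPM, in Het-Met vehicle library 3. The collagen median was 0.09 for the interaction and 0.15 for genotype under E2, opposite in sign to the proteoglycan medians of -0.43 and -0.20. For E2 in WT mice the medians were also opposite (-0.15 and 0.21). They shared a sign for E2 in Het-Met mice (-0.08 and -0.16) and for genotype under vehicle (0.06 and 0.28). This contrast of medians was not tested.

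Among the other secreted proteins, Myoc was the only 1 of 8 with a call. Mgp, which inhibits calcification, ran from 17.6 to 24.9 CPM, Efemp1 from 19.3 to 24.9 CPM and the IGF-binding Igfbp6 from 11.6 to 21.1 CPM. Itih2, a hyaluronan-binding inter-alpha-trypsin inhibitor chain, ran from 3.28 to 6.17 CPM, and Fbln1, a fibulin of elastic fibres, from 11.1 to 18.5 CPM. The growth factors comprised Bmp6, Igf2 and Bmp7, a BMP ligand that pairs with other BMPs in heterodimers. Bmp7 ran from 11.3 to 15.9 CPM, with its highest library among the E2-treated WT mice. Bmp7 did not pass the test in any comparison.

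Transporters, channels and enzymes had medians within 0.09 of 0. The 8 genes had medians of 0.09 and 0.07 for E2 in WT and Het-Met mice, 0.03 and 0.00 between genotypes under vehicle and E2, and 0 calls. Slc6a13, a GABA and taurine carrier of the arachnoid, ran from 10.3 to 16.7 CPM, Slc22a6, an organic anion carrier, from 8.25 to 13.1 CPM, and Slc47a1, a proton-coupled efflux carrier, from 2.13 to 6.21 CPM. Aldh1a2, which makes retinoic acid, ran from 9.27 to 13.9 CPM, and Crabp2, which carries it to the nucleus, from 2.95 to 4.98 CPM. The gap junction gene Gjb2 had 10.05 to 16.2 CPM, Thbd, which encodes thrombomodulin, 15.99 to 22.5 CPM, and Ptgds 511 to 860.0 CPM. Of the 5 transcription factors, Foxc1, required for meningeal development, and its paralog Foxc2 had 6.99 to 9.48 CPM and 1.54 to 2.56 CPM. Foxd1, Tbx18 and Osr1 had 1.17 to 1.85, 3.28 to 4.86 and 4.21 to 6.10 CPM. Their medians were 0.02, 0.00, 0.09 and -0.04 in the order above, with 0 calls.

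**Figure D2:**
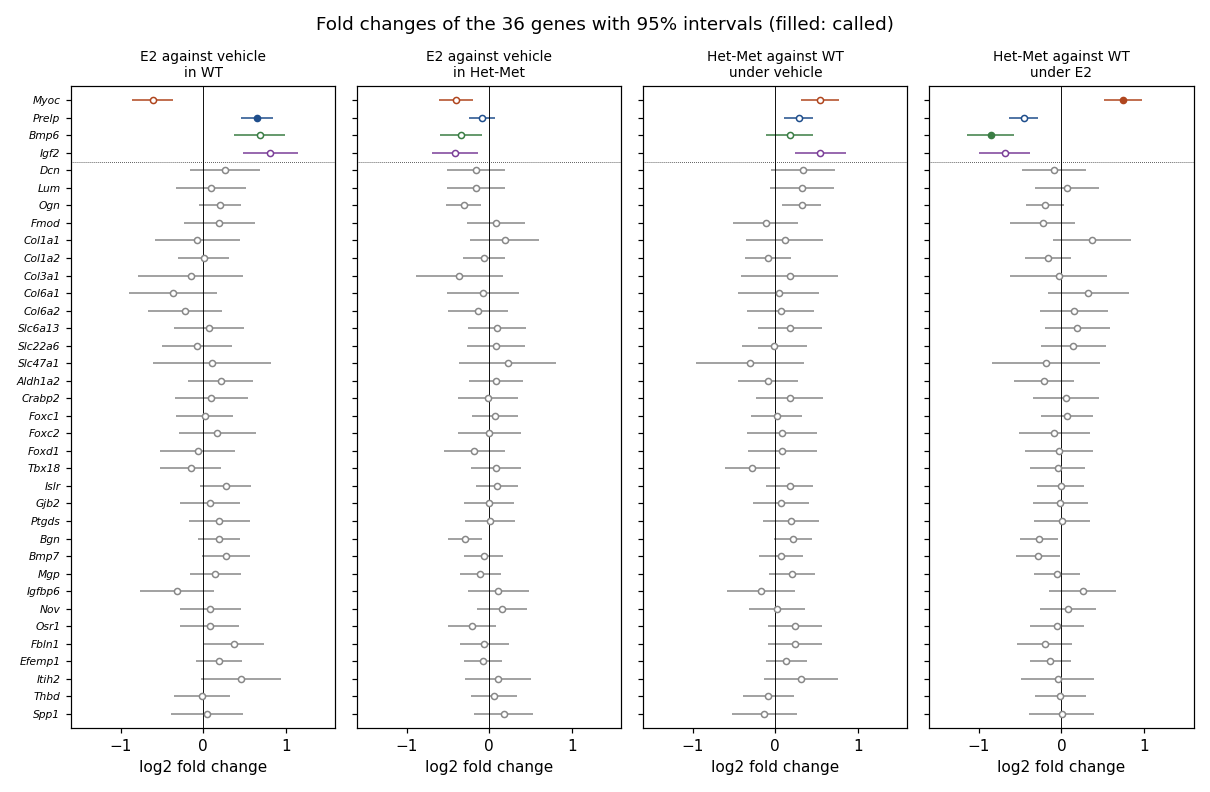
Log2 fold change (horizontal axes) of each of the 36 genes (rows) in the 4 pairwise comparisons, with 95% intervals from limma, filled where called. The 4 genes in the top rows lie off 0 in most panels, from -0.86 to 0.82, while the intervals of 30 or 31 of the other 32 genes hold 0 in each panel.

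Choroid plexus and ependymal markers differed between the groups in the directions of Prelp, Bmp6 and Igf2 in WT mice. The 16 choroid plexus markers had a median log2 fold change of 1.87 for E2 in WT mice, -1.18 for E2 in Het-Met mice, 1.32 for genotype under vehicle and -1.50 under E2, and -2.72 for the interaction. They were 15 higher, 12 lower, 15 higher, 15 lower and 16 lower at the unadjusted threshold, and 0 were called after adjustment (limma). Ependymal markers (7 genes) summed to 21.4 and 21.7 CPM in vehicle-treated and 40.6 and 40.4 CPM in E2-treated WT libraries, and to 34.3, 26.0 and 29.8 CPM against 24.5, 23.5 and 27.4 CPM in Het-Met libraries. The WT groups did not overlap and the Het-Met groups did, as for Prelp. The ciliary factor Foxj1 had an interaction of -1.13 (SE 0.19, adjusted p = 0.0454, limma), the only ependymal marker called. Lists for endothelium, mural cells, perivascular macrophages, microglia, astrocytes, oligodendrocytes and neurons had medians between -0.14 and 0.13 in these 5 comparisons and 0 calls. Pituitary markers summed to between 2.42 and 210.4 CPM in single libraries and overlapped between E2 and vehicle in either genotype.

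Within groups, Igf2 had the order of the choroid plexus markers in 3 of the 4 groups. The marker level is given as the mean log2 level of the 16 genes above or below that of vehicle-treated WT mice. In E2-treated WT mice it was 1.97 and 1.55 above, beside 239 and 199.9 CPM of Igf2. In vehicle-treated Het-Met mice it was 1.69, 1.05 and 1.46 above, beside 191, 173 and 179 CPM. In E2-treated Het-Met mice it was 1.304 and 0.02 above and 0.39 below, beside 179.6, 123 and 113 CPM. The exception was the vehicle-treated WT group, with 131 CPM in the library 0.80 below and 117 CPM in the library 0.80 above. Prelp had the marker order in vehicle-treated Het-Met mice (61.5, 58.4 and 59.5 CPM) and not in the other groups, and Bmp6 in vehicle-treated WT mice (6.89 and 7.63 CPM) and not in the others. Myoc likewise had it in vehicle-treated WT mice only (20.9 and 24.0 CPM). An order among 2 or 3 libraries carries little weight, and the match was not tested.

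**Figure D3:**
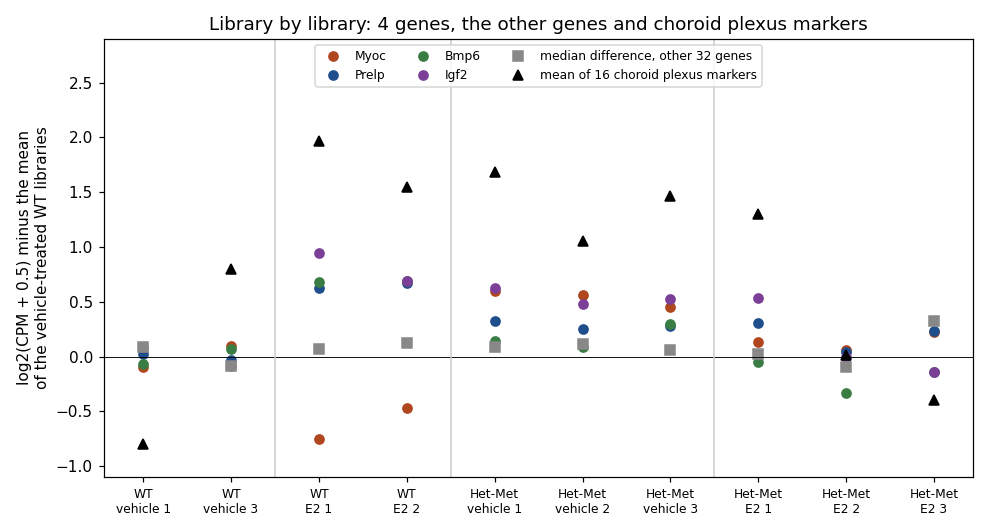
Log2(CPM + 0.5) of the 4 genes and the mean of the 16 choroid plexus markers, and the median over the other 32 genes of each gene's value, as differences from the mean of the vehicle-treated WT libraries (vertical axis), in each of the 10 libraries (horizontal axis). The markers range from -0.80 to 1.97, the median difference of the 32 genes from -0.09 to 0.32, and Myoc alone falls below 0 in both E2-treated WT libraries, at -0.75 and -0.47.

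With this marker level added to the fit, the log2 fold changes of Myoc were -0.65 and -0.38 with E2 in WT and Het-Met mice and 0.51 and 0.78 between genotypes under vehicle and E2, and its call between genotypes under E2 was lost (adjusted p = 0.476, limma). Its genotype call averaged over treatments was kept (0.65, adjusted p = 0.0044, limma). Prelp had 0.59 with E2 in WT mice (SE 0.13, adjusted p = 0.933) and an interaction of -0.65 (adjusted p = 1.00), and both calls were lost. Bmp6 had 0.53 with E2 in WT mice and -0.73 between genotypes under E2 (adjusted p = 0.993, limma), a call lost. Igf2 moved most, to 0.48 with E2 in WT mice and an interaction of -0.69 (SE 0.28, adjusted p = 1.00, limma), also lost. With this covariate 0 of all genes were called for E2 in WT mice, for genotype under E2 and for the interaction. The lost calls therefore do not set the 4 genes apart from other genes. The share of the Igf2 reads that came from choroid plexus was not measured. A covariate of the mean level of the other 32 genes left each of the 4 close to its first value, and the calls of Prelp, Igf2 and Myoc were kept. Over all genes, that covariate gave 52 calls for the interaction, against 11 without a covariate.

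**Figure D4:**
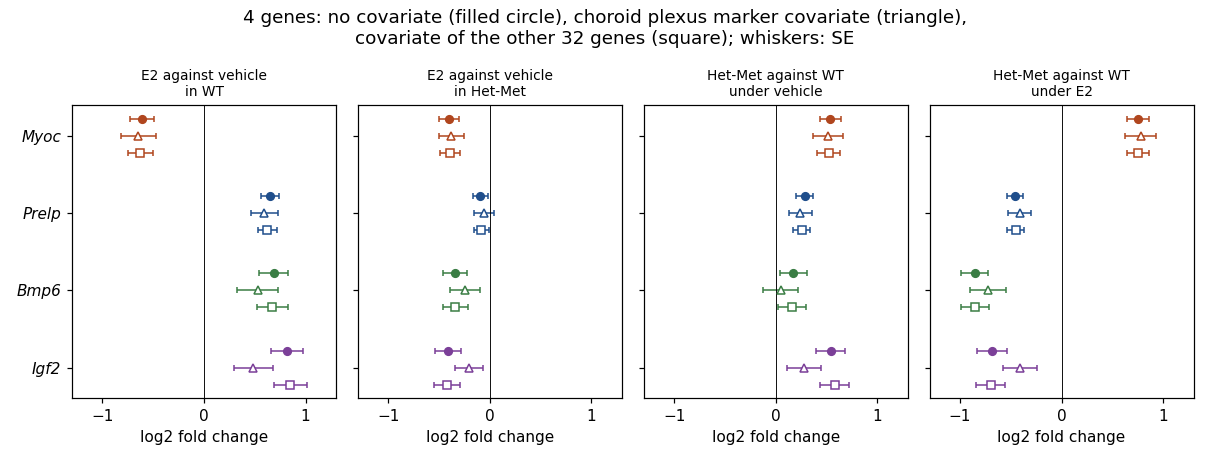
Log2 fold change (horizontal axes) of the 4 genes (rows) in the 4 pairwise comparisons without a covariate (filled circle), with the choroid plexus marker covariate (triangle) and with the covariate of the other 32 genes (square), whiskers SE. Igf2 lies closer to 0 with the marker covariate in each panel, 0.48 in place of 0.82 for E2 in WT mice, and Myoc moves by less than its SE.

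Other genes of the same pathways were read from lists, with 0 calls in any list in the 5 comparisons above. Of 20 further meningeal markers tested, 3 were higher and 1 lower with E2 in WT mice at the unadjusted threshold. The interaction held 1 higher and 3 lower, led by the epithelial keratins Krt18 (-1.94, SE 0.40, adjusted p = 0.0976) and Krt8 (-1.52, SE 0.32, adjusted p = 0.103, limma), which choroid plexus epithelium also makes. Of 48 further matrix genes, 3 were higher and 5 lower for the interaction, with Col8a1, a short-chain collagen, at -2.68 (SE 0.53, adjusted p = 0.0864) and Nid2, a basement membrane nidogen, at -0.85 (SE 0.22, adjusted p = 0.252, limma). Their median was -0.10, against -0.12 for the other 32 genes and 0.005 for all genes. The 26 further BMP genes tested, receptors, SMADs, ID targets and antagonists, had 0 at the unadjusted threshold for E2 in WT mice and 0 for the interaction, with medians of 0.03 and 0.02. The activin receptor Acvr2b was nearest for the interaction at 0.75 (SE 0.36, adjusted p = 0.919), with the BMP target Id2 next at 0.25 (SE 0.15, adjusted p = 1.00, limma). Of the 12 further IGF genes, Igfbp2, a binding protein of IGF2 made by the choroid plexus, had an interaction of -1.35 (SE 0.29, adjusted p = 0.103) and Irs2, a receptor substrate, -0.39 (SE 0.19, adjusted p = 0.921, limma). Igfbp2 stood at 0.65 with E2 in WT mice (SE 0.22, adjusted p = 0.874) and at -0.70 in Het-Met mice (SE 0.18, adjusted p = 0.668, limma), and neither passed. Of the 16 further retinoid genes, Rdh5, a retinol dehydrogenase, had an interaction of -1.91 (SE 0.49, adjusted p = 0.223) and Dhrs3, a retinal reductase, -0.39 (SE 0.14, adjusted p = 0.668, limma), with 3 of the 16 lower at the unadjusted threshold.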

How the data were processed

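RNA-seq libraries of 75-bp single-end reads were aligned by the authors to mm10 with TopHat2, and the deposited table holds CPM per gene symbol and library. The strand setting of counting is not given in the sources used here. CPM were whole multiples of 1 read, within 0.02 reads, so reads could be recovered for alternatives. The 15081 genes averaging 0.5 CPM or more were fitted as log2(CPM + 0.5) with limma 3.58.1 in R 4.3.3 on 4 group means, with Benjamini-Hochberg adjustment over all of them; fold changes are on that scale, which understates those of low genes. The study's own tools were DESeq and DESeq2. The members and lists were chosen with earlier results of these data known. Values per library were given for Myoc, Prelp, Bmp6, Igf2 and members called or with an unadjusted p under 0.01 in a comparison, and from other lists up to 2 genes with the smallest p. Alternatives included edgeR 4.0.16 and DESeq2 1.42.0 on recovered reads, other pseudocounts, filters, scalings and covariates, a block and left-out libraries. The fit was tested on simulated data. Gene positions are from GENCODE vM21, promoters from RefSeq.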

Additional observations from a re-analysis of the deposited data

Results flagged for a closer look

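The effect of E2 differed between genotypes, by the interaction term in limma, for 2 of the 36 genes. For Prelp the log2 fold change with E2 in Het-Met mice minus that in WT mice was -0.74 (SE 0.12, adjusted p = 0.0393, limma), with 0.65 in WT and -0.09 in Het-Met mice. For Igf2 it was -1.23 (SE 0.20, adjusted p = 0.0454, limma), with 0.82 and -0.41. With the choroid plexus marker covariate these were -0.65 for Prelp and -0.69 for Igf2 (adjusted p = 1.00 for both, limma), and neither was called. With that covariate 0 of all genes were called for the interaction. The 16 markers themselves had a median interaction of -2.72.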

How the results depend on the processing

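For the 4 genes, 604 alternative values of 28 results gave 0 reversals, 57 lost calls and 16 gained calls. Each WT group had 2 libraries, and the 95% intervals of the other 32 genes spanned a median of 0.82 log2 units for E2 in WT mice.

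For E2 in WT mice the members called were 4 at the unadjusted p, 2 with the replicate block or DESeq2, and 0 with a pseudocount of 0.1, no filter, a 2 CPM minimum, the choroid plexus covariate or only the libraries compared. For E2 in Het-Met mice they were 2 unadjusted. Between genotypes under vehicle they were 2 unadjusted and 1 with DESeq2, and under E2 4 unadjusted and 0 with no filter, quantile normalization, the replicate block or the choroid plexus covariate. For the interaction they were 5 unadjusted, 1 with a 2 CPM minimum or quantile normalization, and 0 with no filter or the choroid plexus covariate. Averaged over genotypes E2 gave 1 unadjusted and with median-of-ratios scaling, quantile normalization or DESeq2, and averaged over treatments genotype gave 0 with no filter. Leaving out 1 library gave 0 to 2, 0 to 4, 0 to 3 and 0 to 1 for E2 in WT mice, genotype under E2, the interaction and average genotype. Counts over all genes moved as well: for E2 in WT mice from 2 to 10 with the replicate block, 14 with DESeq2 and 0 to 16 over left-out libraries, for genotype under E2 from 4 to 29 with DESeq2 and 0 to 45, and for the interaction from 11 to 37 and 0 to 71. With the choroid plexus covariate they were 0 in each of these comparisons, and with no filter they were 0, 0 and 1.

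Calls were lost without the filter for Myoc under E2 (0.75) and on average (0.65), Prelp with E2 in WT mice (0.65) and interaction (-0.74), Bmp6 under E2 (-0.86) and the Igf2 interaction (-1.23); with a 2 CPM minimum for Prelp (0.65) and the Igf2 interaction (-1.23); and for Prelp with a pseudocount of 0.1 (0.65) or only the libraries compared (0.65). Quantile normalization lost Myoc (0.71) and Bmp6 (-0.87) under E2 and the Igf2 interaction (-1.24). The choroid plexus covariate lost Myoc (0.78) and Bmp6 (-0.73) under E2, Prelp with E2 in WT mice (0.59) and the interactions of Prelp (-0.65) and Igf2 (-0.69). Calls were gained with DESeq2 for Myoc with E2 in WT mice (-0.62), under vehicle (0.53) and for average E2 (-0.52), Prelp under E2 (-0.48) and the Bmp6 interaction (-1.09); with median-of-ratios scaling for average E2 on Myoc (-0.51) and Prelp under E2 (-0.48); with quantile normalization for average E2 on Myoc (-0.51); with edgeR (-0.48) or only the libraries compared (-0.46) for Prelp under E2; and with the covariate of the other members for the Bmp6 interaction (-1.01). The cause was not tested.

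Whether replicate numbers pair the libraries is not stated in the labels. Correlations of deviations from group means were -0.17 to 0.08 in 12 same-number pairs and -0.15 to 0.17 in 25 other pairs. In groups of 2 libraries these deviations mirror each other, so the check cannot settle pairing. The replicate block lost Myoc (0.74) and Bmp6 (-0.90) under E2 and gained Igf2 with E2 in WT mice (0.81).

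Over left-out libraries, log2 values ran from 0.61 to 0.89 (Myoc under E2), 0.58 to 0.72 (Myoc, average genotype), 0.62 to 0.68 (Prelp, E2 in WT mice), -0.51 to -0.38 (Prelp under E2), -0.80 to -0.67 (Prelp interaction), -0.92 to -0.78 (Bmp6 under E2), -1.099 to -0.95 (Bmp6 interaction), 0.69 to 0.94 (Igf2, E2 in WT mice), -0.89 to -0.55 (Igf2 under E2) and -1.43 to -1.095 (Igf2 interaction).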
